A study of Mus musculus with 6 samples.

Results

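The genes described here are those of cholesterol synthesis and of its control by the transcription factor SREBP2, in liver tumours of mice with and without a transgene for AEG-1, astrocyte elevated gene-1, an oncogene product. They were chosen by name, as a list of 28 genes: the enzymes from acetyl-CoA to cholesterol, the proteins that hold or release SREBP2, and a few proteins that move or esterify sterols. A gene was taken as measured where the array platform assigns a probe set to that gene alone, and its brightest probe set over the 6 arrays stands for it. This gave 25 measured genes out of 12393 in the whole data set, with 49 probe sets among them; Insig1, Acat2 and Soat2 have no such probe set and are not analysed here. RNA came from tumours of 3 male Alb/AEG-1 transgenic mice and of 3 male wild-type (WT) mice, each on its own Affymetrix array. The transgene was a 5.3-kb XhoI fragment injected into B6CBAF1/J embryos, and Alb is the symbol of albumin, whose promoter is used to direct transgenes to hepatocytes. The labels give CD-1 as the strain background of both groups and do not say whether the transgenic mice come from 1 founder. Both groups had received the liver carcinogen N-nitrosodiethylamine (DEN), 10 µg per g body weight once at 14 days of age, and the tumours were taken at 28 weeks. The question is whether tumours that arose with the transgene differ in the expression of these genes from tumours that arose without it.

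Cholesterol is built from acetyl-CoA through mevalonate, isoprenoid units, squalene and lanosterol, and lanosterol is then trimmed and rearranged to cholesterol in the endoplasmic reticulum. SREBP2 is made as a membrane protein bound to its escort SCAP. When sterols are plentiful, INSIG proteins hold SCAP in the endoplasmic reticulum; when sterols are scarce, SCAP carries SREBP2 to the Golgi, where proteases free the part that enters the nucleus and switches on the genes of the pathway together. In liver, a main organ of cholesterol synthesis, these transcripts are known to vary jointly with sterol supply and nutrition. SREBP2 acts at sterol regulatory elements near the start of its target genes, usually beside sites for the factors NF-Y and Sp1.

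The starts of 4 enzymes that followed the joint pattern closely (correlation over 0.9 with the mean of the other enzymes, below), and of the enzyme that followed it least, are printed so that the boxes marked in them can be compared. Fdft1 also had a correlation over 0.9, but no promoter was available for it. The sequences are RefSeq promoters of the mouse build GRCm38.p6, from 250 bases before to 50 after the annotated start, written 5′ to 3′ on the strand of the gene. Capitals mark the sterol element TCACNCCAC, the NF-Y box CCAAT and the Sp1 box GGGCGG, each on either strand, with the sterol element found in Hmgcs1 alone of the 5, so that ATTGG and CCGCCC in capitals are boxes read from the other strand. Of the 3 promoters listed for Dhcr7, the one with the most boxes is shown.
Dhcr7: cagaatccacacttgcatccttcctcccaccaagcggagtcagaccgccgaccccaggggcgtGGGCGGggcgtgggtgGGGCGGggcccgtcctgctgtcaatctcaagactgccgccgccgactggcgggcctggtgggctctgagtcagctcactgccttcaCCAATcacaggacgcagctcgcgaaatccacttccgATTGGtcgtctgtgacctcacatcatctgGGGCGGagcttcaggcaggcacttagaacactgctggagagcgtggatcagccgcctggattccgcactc
Lss: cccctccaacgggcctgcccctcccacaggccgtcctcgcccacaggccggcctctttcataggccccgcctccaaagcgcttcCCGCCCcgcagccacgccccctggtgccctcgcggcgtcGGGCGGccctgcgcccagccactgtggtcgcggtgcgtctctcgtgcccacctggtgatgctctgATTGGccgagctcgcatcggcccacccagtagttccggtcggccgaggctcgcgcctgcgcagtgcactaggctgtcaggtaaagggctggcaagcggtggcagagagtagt
Hmgcs1: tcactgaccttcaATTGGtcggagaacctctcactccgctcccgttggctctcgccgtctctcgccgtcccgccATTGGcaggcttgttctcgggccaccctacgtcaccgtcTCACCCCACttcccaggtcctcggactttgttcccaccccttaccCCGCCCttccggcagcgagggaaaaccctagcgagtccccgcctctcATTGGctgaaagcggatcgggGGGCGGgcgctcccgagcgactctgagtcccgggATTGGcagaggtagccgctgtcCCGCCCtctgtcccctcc
Idi1: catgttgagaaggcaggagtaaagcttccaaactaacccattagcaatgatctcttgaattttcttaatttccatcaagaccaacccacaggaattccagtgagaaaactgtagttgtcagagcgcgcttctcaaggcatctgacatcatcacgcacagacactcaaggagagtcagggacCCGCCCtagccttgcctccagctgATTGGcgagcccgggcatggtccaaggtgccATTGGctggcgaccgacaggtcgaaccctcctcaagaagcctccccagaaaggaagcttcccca
Lbr: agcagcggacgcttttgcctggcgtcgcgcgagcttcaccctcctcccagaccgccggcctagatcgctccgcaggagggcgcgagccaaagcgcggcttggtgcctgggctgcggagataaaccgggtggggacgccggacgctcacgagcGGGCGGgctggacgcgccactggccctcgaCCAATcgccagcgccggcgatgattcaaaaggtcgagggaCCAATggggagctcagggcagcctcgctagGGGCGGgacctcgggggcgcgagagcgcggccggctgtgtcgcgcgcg
These lie at chr7:143829964-143830263, plus strand, for Dhcr7, at chr10:76531355-76531654, plus strand, for Lss, at chr13:119690101-119690400, plus strand, for Hmgcs1, at chr13:8885356-8885655, plus strand, for Idi1, and at chr1:181842352-181842651, minus strand, for Lbr.

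The promoter table held 22 of the 28 genes, 20 of them measured and 16 of these synthesis enzymes. The measured enzymes without a promoter were Fdps, Fdft1 and Sqle. A CCAAT box was found in 16 of the 16 enzymes, while 42.3% of the 9887 measured genes in the table had one in any of their promoters. A GGGCGG box was found in 14 of the 16 enzymes, against 61.0% of the measured genes. The sterol element TCACNCCAC was found in 1 of the 16 enzymes and in 1.497% of the measured genes. That enzyme was Hmgcs1, in which the element begins 137 bases before the annotated start. The letters searched for the element are 1 narrow form of it, and the counts describe these windows only. Lbr, whose array pattern had r = -0.481 to the mean of the other enzymes, also held 2 CCAAT and 2 GGGCGG boxes, as many CCAAT boxes as Dhcr7 and Idi1.

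All values are log2 expression levels as deposited by the authors, and the number of arrays (n = 3 per group) limits the precision. Medians of the 6 arrays lay within 0.0289 log2 of each other, and pairs of arrays correlated over all probe sets with Pearson's r between 0.987 and 0.993. Replicate numbers only name the arrays. Each mouse has an animal number, and these fall into a lower range (Alb/AEG-1 replicates 1 and 2 and WT replicate 1) and a higher range (Alb/AEG-1 replicate 3 and WT replicates 2 and 3), which the labels do not call a batch. The 7 measured hepatocyte markers, among them Alb, Apoa1 and Cps1, averaged 13.59, 13.54 and 13.50 in the Alb/AEG-1 tumours, against 13.55, 13.50 and 13.57 in the WT tumours. These tumours are bulk tissue, so a smaller share of a cell type and less RNA per cell cannot be told apart.

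The clearest feature of the cholesterol genes was a pattern across single tumours and not between genotypes. WT replicate 1 had the highest level of the 6 arrays in 18 of the 25 genes, among them 16 of the 19 measured enzymes; over all 12393 genes that array was the highest in 12.2%. WT replicate 3 had the lowest level in 16 of the 25 genes (16.4% over all genes). The mean level over the 19 enzymes was 9.17, 9.17 and 9.23 in the Alb/AEG-1 tumours, against 9.54, 8.90 and 8.68 in the WT tumours. The Alb/AEG-1 tumours thus lay between the extremes of the WT tumours. In 17 of the 25 genes, all 3 Alb/AEG-1 values fell inside the WT range, which was the case in 17.2% of all genes.

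**Figure D1:**
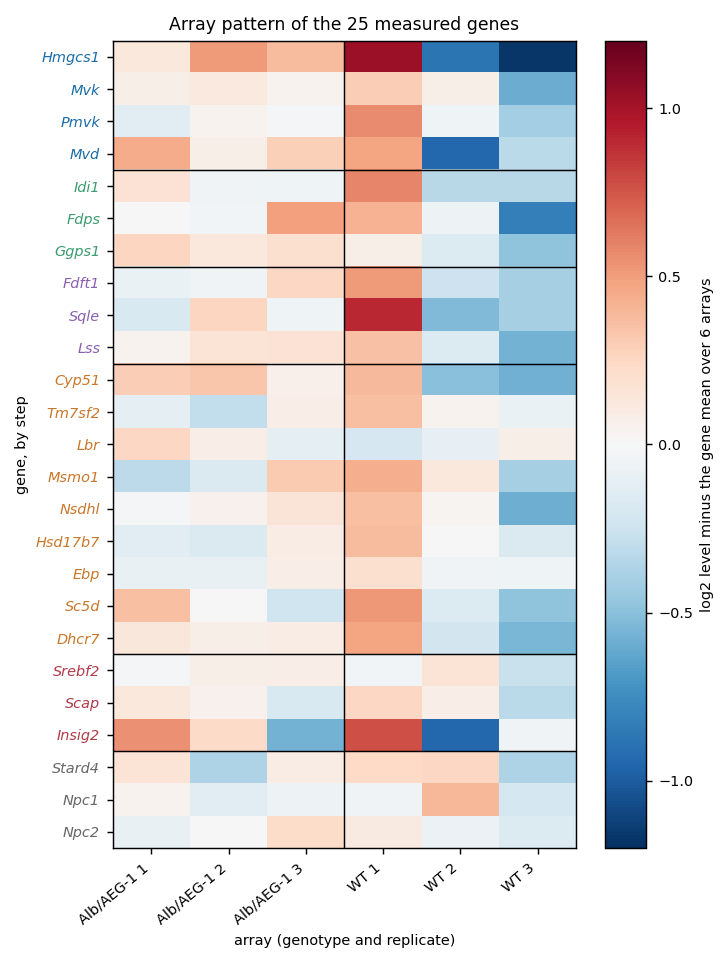
Each row is a measured gene and each column an array; colour gives the log2 level minus that gene's mean over the 6 arrays, and gene names are coloured by step from mevalonate (top) to transport (bottom). The column of WT replicate 1 is the highest in 18 of the 25 rows and that of WT replicate 3 the lowest in 16, with the Alb/AEG-1 columns mostly between.

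In the mevalonate steps none of the 4 measured genes passed the test between genotypes. Hmgcs1, the cytosolic synthase that makes HMG-CoA, had the widest spread of all 25 genes, with 11.07, 11.44 and 11.32 in the Alb/AEG-1 tumours, against 11.97, 10.06 and 9.77 in the WT tumours. WT replicate 1 lay above all 3 Alb/AEG-1 tumours and WT replicates 2 and 3 below them, and WT replicate 1 exceeded WT replicate 3 by 4.57-fold. The means were 11.28 ± 0.19 in Alb/AEG-1 and 10.60 ± 1.19 in WT tumours (SD, n = 3 each), a difference of 0.68 ± 0.51 log2 (SE; limma, adjusted p = 0.712). All 4 Hmgcs1 probe sets differed in the same direction, by 0.39 to 0.68 log2. Mvd, the decarboxylase that closes the mevalonate steps, was at 7.41, 7.04 and 7.26 in the Alb/AEG-1 tumours, against 7.44, 6.03 and 6.65 in the WT tumours. Its difference was 0.53 ± 0.32 log2 (limma, adjusted p = 0.662), on a probe set that by its type may bind related transcripts too, and 0.11 ± 0.19 on the other one. For the kinases of the pathway the differences were smaller than their errors: 0.15 ± 0.21 for Mvk, mevalonate kinase, and -0.076 ± 0.22 for Pmvk, phosphomevalonate kinase. Mvk was at 7.20, 7.25 and 7.18 in the Alb/AEG-1 tumours, against 7.43, 7.20 and 6.54 in the WT tumours, and Pmvk at 8.35, 8.52 and 8.45 in the Alb/AEG-1 tumours, against 9.05, 8.43 and 8.07 in the WT tumours.

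Among the enzymes that join isoprenoid units, Ggps1 was the 1 measured gene whose groups did not overlap. Ggps1 makes geranylgeranyl diphosphate, used for anchoring proteins to membranes, and does not itself lead to sterols. It was at 5.97, 5.83 and 5.90 in the Alb/AEG-1 tumours, against 5.78, 5.54 and 5.23 in the WT tumours. The gap between the groups was small, from the lowest Alb/AEG-1 value of 5.830 to the highest WT value of 5.782. The difference was 0.38 ± 0.14 log2 (limma, unadjusted p = 0.0284, adjusted p = 0.611), so it did not pass over all probe sets. That probe set may also bind related transcripts, and the 3 other Ggps1 probe sets differed by -0.11, 0.023 and -0.089. Idi1, the isomerase of the isoprenoid units, was at 10.53, 10.31 and 10.31 in the Alb/AEG-1 tumours, against 10.94, 10.02 and 10.02 in the WT tumours. WT replicate 1 was again highest, the other WT tumours lowest, and the genotype difference was 0.054 ± 0.24 log2. Fdps, which makes farnesyl diphosphate, was at 10.85, 10.82 and 11.34 in the Alb/AEG-1 tumours, against 11.27, 10.79 and 10.03 in the WT tumours, with Alb/AEG-1 replicate 3 highest and a difference of 0.31 ± 0.30 log2.

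The enzymes that commit isoprenoids to sterols all had WT replicate 1 highest. Fdft1, squalene synthase, was at 9.84, 9.87 and 10.17 in the Alb/AEG-1 tumours, against 10.43, 9.68 and 9.53 in the WT tumours. Sqle, the epoxidase that acts on squalene and a control point of the pathway, was at 8.27, 8.70 and 8.40 in the Alb/AEG-1 tumours, against 9.36, 7.92 and 8.05 in the WT tumours. Lss, which closes the ring to lanosterol, was at 8.39, 8.51 and 8.52 in the Alb/AEG-1 tumours, against 8.70, 8.18 and 7.78 in the WT tumours. In each of the 3 genes all Alb/AEG-1 values fell below WT replicate 1 and above the other WT tumours. Their differences were 0.082 ± 0.23, 0.014 ± 0.36 and 0.25 ± 0.21 log2. For Sqle the means of the genotypes were nearly equal, at 8.46 ± 0.23 in Alb/AEG-1 and 8.44 ± 0.79 in WT tumours (SD, n = 3 each), and its 95% interval of -0.81 to 0.84 log2 leaves room for changes in either direction. The brightest Lss and Fdft1 probe sets may bind related transcripts. More specific ones differed by 0.53 ± 0.29 (Lss) and 0.036 ± 0.24 (Fdft1), and a dimmer Lss probe set by -0.19 ± 0.088, with groups that did not overlap.

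**Figure D2:**
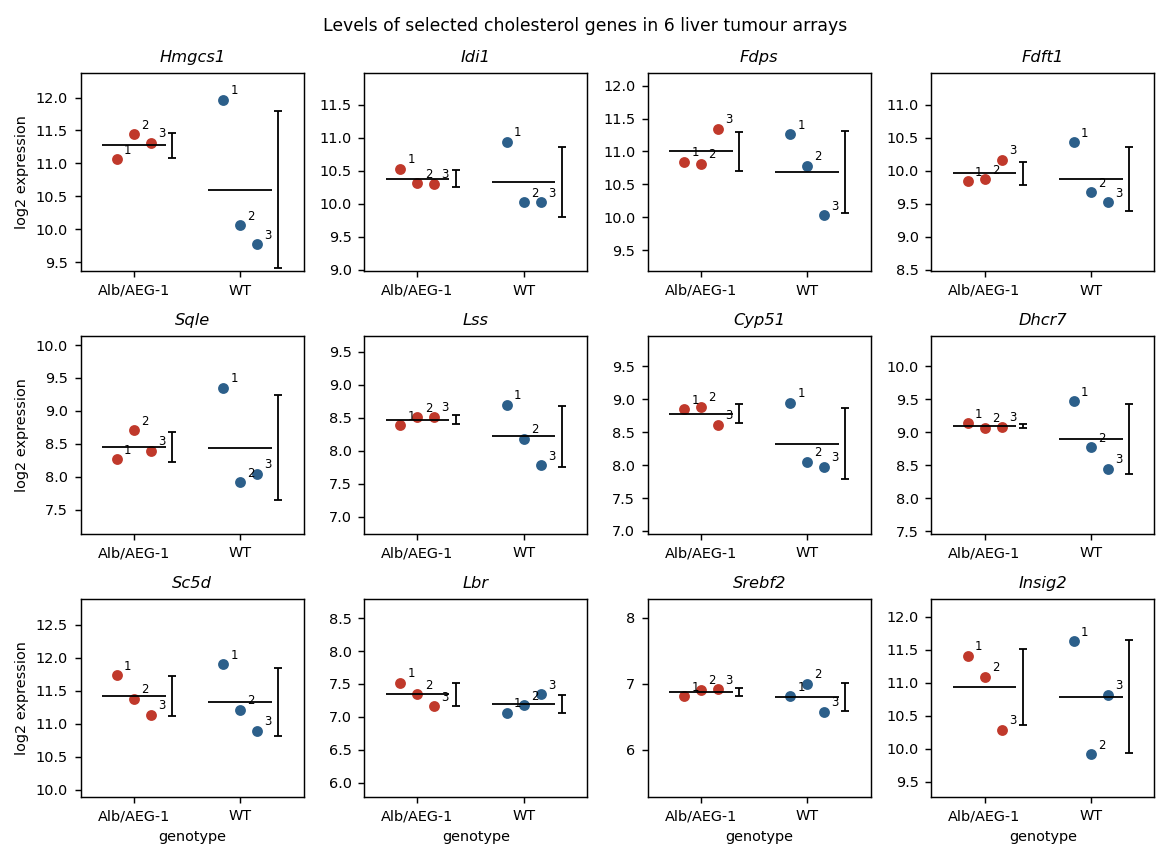
Log2 levels of 12 of the genes, with 1 point per array labelled by replicate, a line at the group mean and a bar of 1 SD to each side (n = 3 per group); every panel spans the same 3 log2 units. For Hmgcs1 the Alb/AEG-1 points lie between 11.07 and 11.44 and the WT points between 9.77 and 11.97.

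The late sterol enzymes, which turn lanosterol into cholesterol, fell into subsets by their array pattern. Cyp51, the lanosterol demethylase, was at 8.84, 8.88 and 8.61 in the Alb/AEG-1 tumours, against 8.94, 8.05 and 7.97 in the WT tumours. Dhcr7, which makes the last double-bond reduction of 1 branch, was at 9.14, 9.07 and 9.08 in the Alb/AEG-1 tumours, against 9.48, 8.78 and 8.45 in the WT tumours. The Alb/AEG-1 tumours were close together for Dhcr7 (SD 0.035) and the WT tumours far apart (SD 0.53). The genotype differences were 0.46 ± 0.25 log2 for Cyp51 (limma, adjusted p = 0.643, same direction in its 3 probe sets) and 0.20 ± 0.23 for Dhcr7. Nsdhl, a sterol dehydrogenase of the demethylation steps, and Sc5d, a desaturase, also had WT replicate 1 highest and WT replicate 3 lowest. Nsdhl was at 9.70, 9.77 and 9.87 in the Alb/AEG-1 tumours, against 10.07, 9.75 and 9.13 in the WT tumours, and Sc5d at 11.73, 11.38 and 11.13 in the Alb/AEG-1 tumours, against 11.90, 11.21 and 10.89 in the WT tumours.

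In Msmo1, Hsd17b7, Ebp and Tm7sf2 WT replicates 2 and 3 were not set apart below the Alb/AEG-1 tumours. Msmo1, the methyl sterol oxidase, was at 10.17, 10.31 and 10.80 in the Alb/AEG-1 tumours, against 10.92, 10.61 and 10.09 in the WT tumours. Tm7sf2, a sterol reductase, was at 10.38, 10.21 and 10.59 in the Alb/AEG-1 tumours, against 10.87, 10.55 and 10.43 in the WT tumours. WT replicate 1 was the highest array in both, but for Tm7sf2 the lowest was Alb/AEG-1 replicate 2. Hsd17b7, a ketosteroid reductase of the demethylation steps, was at 7.75, 7.70 and 7.97 in the Alb/AEG-1 tumours, against 8.26, 7.88 and 7.71 in the WT tumours, a difference of -0.14 ± 0.15 log2, and -0.31 ± 0.17 on a dimmer probe set whose groups did not overlap. Ebp, the sterol isomerase, was at 11.19, 11.19 and 11.36 in the Alb/AEG-1 tumours, against 11.47, 11.24 and 11.23 in the WT tumours, a difference of -0.067 ± 0.10 log2. The differences of Msmo1 (-0.11 ± 0.24) and Tm7sf2 (-0.22 ± 0.14; limma, adjusted p = 0.678) were likewise negative. Lbr, an inner nuclear membrane protein that carries the same reductase activity as Tm7sf2, had the opposite order, at 7.52, 7.35 and 7.16 in the Alb/AEG-1 tumours, against 7.07, 7.17 and 7.34 in the WT tumours. WT replicate 1 was the lowest array there, and the genotype difference was 0.15 ± 0.12 log2.

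The regulators of SREBP2 differed among themselves. Srebf2, which encodes SREBP2, was at 6.81, 6.91 and 6.92 in the Alb/AEG-1 tumours, against 6.81, 7.01 and 6.58 in the WT tumours, with a difference of 0.086 ± 0.12 log2 (limma, adjusted p = 0.835). WT replicate 1, the highest array for most enzymes, was not high in Srebf2. A dimmer Srebf2 probe set had no overlap between groups, at 6.04, 6.11 and 6.19 in the Alb/AEG-1 tumours, against 5.95, 5.59 and 5.92 in the WT tumours, and differed by 0.30 ± 0.12 log2 (limma, unadjusted p = 0.0352, adjusted p = 0.611). Scap, the escort of SREBP2, was at 9.95, 9.87 and 9.64 in the Alb/AEG-1 tumours, against 10.07, 9.90 and 9.50 in the WT tumours, with a difference near 0 (-0.0022 ± 0.16 log2). Insig2, which retains SCAP in the endoplasmic reticulum, was at 11.41, 11.09 and 10.29 in the Alb/AEG-1 tumours, against 11.63, 9.92 and 10.82 in the WT tumours. It was high in Alb/AEG-1 replicates 1 and 2 and WT replicate 1 and lower in the remaining 3 tumours, so its genotype groups overlapped widely (difference 0.14 ± 0.44 log2).

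On the brightest probe sets of the 3 sterol transport genes WT replicate 1 was not the highest array. Stard4, a soluble sterol carrier, was at 9.14, 8.60 and 9.07 in the Alb/AEG-1 tumours, against 9.22, 9.23 and 8.61 in the WT tumours, with a difference of -0.082 ± 0.21 log2 and -0.49 ± 0.26 on a dimmer probe set whose groups did not overlap and in which WT replicate 1 was the highest array. Npc1 and Npc2 release cholesterol from lysosomes. Npc1 was at 8.60, 8.42 and 8.50 in the Alb/AEG-1 tumours, against 8.51, 8.95 and 8.34 in the WT tumours, and Npc2 at 9.42, 9.51 and 9.73 in the Alb/AEG-1 tumours, against 9.62, 9.44 and 9.35 in the WT tumours. For Stard4 and Npc1 the highest array was WT replicate 2, and for Npc2 it was Alb/AEG-1 replicate 3. The differences were -0.10 ± 0.16 log2 for Npc1 and 0.085 ± 0.12 for Npc2.

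Between genotypes, 0 of the 25 genes passed an adjusted p of 0.05 with limma over all 22626 probe sets, where 1 probe set passed (0.00442%). At an unadjusted p below 0.05 there was 1 gene of the 25, Ggps1, while 8.33% of all genes passed that mark (3.86% higher and 4.47% lower). Groups did not overlap in 1 of the 25 genes, against 15.1% of all genes, and in 5 of their 49 probe sets, against 14.7% of all probe sets. Of the 25 differences 17 were positive and 8 negative, with a median of 0.085 log2, beside 47.8% positive and a median of -0.0081 over all genes. The smallest adjusted p among the 25 was 0.611. The absence of calls does not show equal levels: the 95% interval ran from -0.52 to 1.87 log2 for Hmgcs1 and from -0.30 to 0.17 for Ebp. These differences turned on WT replicate 1. It was the highest array in 18 of the 25 genes, so leaving it out must raise the difference in those genes. The values without it restate that pattern by array and are no separate test of genotype. Without WT replicate 1, the median difference was 0.34 log2 and 23 of the 25 differences were positive. At an unadjusted p below 0.05 (limma) there were 9 genes, all higher in Alb/AEG-1 tumours. That mark was passed by 11.4% of all probe sets in either direction and by 5.64% with a higher level. The 9 genes were Hmgcs1, Mvd, Idi1, Ggps1, Fdft1, Sqle, Lss, Cyp51 and Dhcr7. Hmgcs1 then differed by 1.36 ± 0.15 log2 (limma, adjusted p = 0.143) and Cyp51 by 0.77 ± 0.12 (adjusted p = 0.242), and again 0 genes passed after adjustment. Without WT replicate 3 the median difference was -0.099 log2, with 8 of 25 positive.

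**Figure D3:**
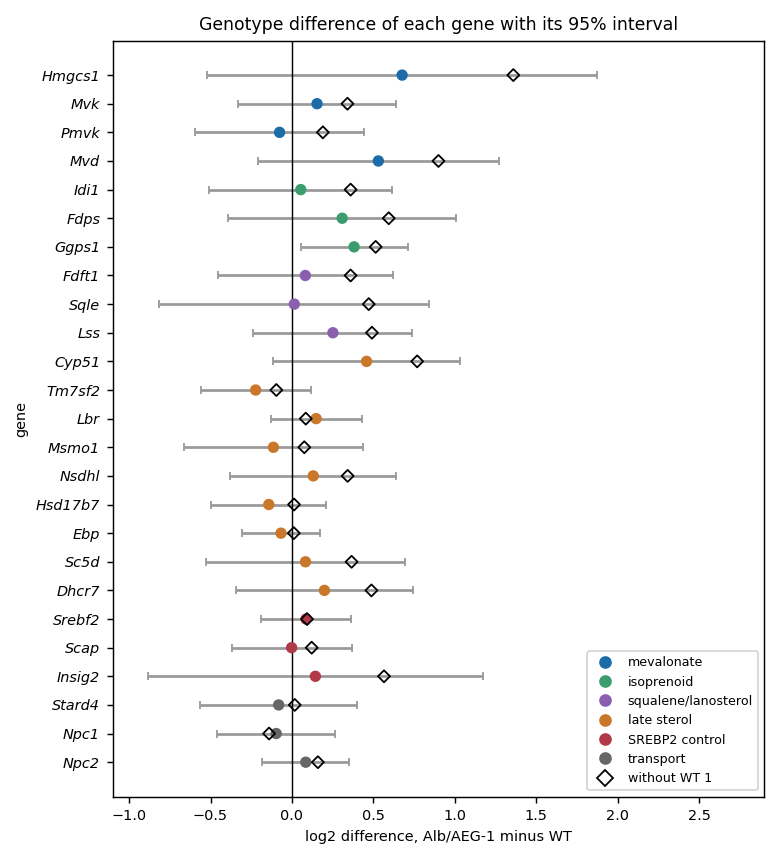
Points give the log2 difference (Alb/AEG-1 minus WT) of each gene by its brightest probe set, coloured by step, with bars for limma's 95% interval over 3 arrays per group; open diamonds give the difference without WT replicate 1, with no interval drawn. Every bar but that of Ggps1 (0.053 to 0.71) crosses 0, and the diamond of Hmgcs1 lies at 1.36.

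In most of these genes the WT tumours differed more among themselves than the Alb/AEG-1 tumours did. The SD of the WT arrays was above that of the Alb/AEG-1 arrays in 23 of the 25 genes (50.8% of all genes), the exceptions being Lbr and Npc2. The median SD over the 25 genes was 0.16 log2 in Alb/AEG-1 and 0.46 in WT tumours, beside 0.12 and 0.12 over all genes. For Hmgcs1 it was 0.19 in Alb/AEG-1 and 1.19 in WT tumours, and for Sqle 0.23 and 0.79 in the same order. The SDs rest on 3 arrays each, the genes share those arrays, and no test of the spread was made. Insig2 varied within both genotypes, with an SD of 0.58 in Alb/AEG-1 and 0.86 in WT tumours.

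**Figure D4:**
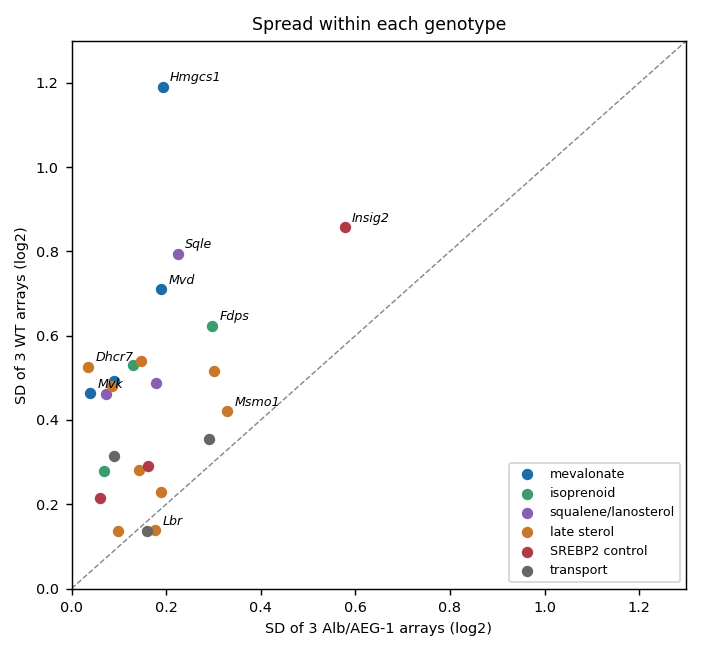
Each point is a gene, with the SD of its 3 Alb/AEG-1 arrays on the horizontal and of its 3 WT arrays on the vertical axis (log2), and a dashed line where both are equal. Of the 25 points 23 lie above the line, with Hmgcs1 highest at 0.19 and 1.19.

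The genotype difference was also read within the ranges of animal numbers, a split chosen with its earlier result in these data known. In the lower numbers (2 Alb/AEG-1 tumours, 1 WT tumour) the median difference over the 25 genes was -0.34 log2, and in the higher numbers (1 Alb/AEG-1 tumour, 2 WT tumours) it was 0.31. The difference was negative in the lower and positive in the higher numbers in 19 of the 25 genes, against 22.8% of all genes. For Hmgcs1 it was -0.71 in the lower and 1.40 in the higher numbers, and for Sqle -0.87 and 0.41 in that order. The change of the difference between ranges (a limma interaction term) was positive in 23 genes and had an unadjusted p below 0.05 in 14, all positive, while 48.1% of all genes were positive, 4.86% passed that mark and 2.63% passed it with a positive term. After adjustment over all probe sets 0 genes passed (smallest adjusted p = 0.51, for Hmgcs1), and 0 probe sets passed in all. The term rests on single tumours in 2 of its 4 arms, Alb/AEG-1 replicate 3 alone in the higher numbers and WT replicate 1 alone in the lower numbers, so range and single tumour cannot be told apart. The 14 genes share those tumours, and their p-values are no support beyond the pattern by array given above. The same term had an unadjusted p below 0.05 in 9 of 9 macrophage markers, each positive, with a median of 0.85 log2; the part of macrophages in the term of the cholesterol genes was not tested.

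With genotype kept as a term, 22 of the 25 genes were lower in the higher animal numbers (median -0.26 log2; 49.1% of all genes were lower there). The unadjusted p was below 0.05 in 6 genes, each lower in the higher numbers (4.41% of all genes were lower at that mark, 8.74% in either direction). After adjustment 0 of the 25 genes passed, and 1 probe set passed in all (0.00442%). Insig2 had the largest such difference, -1.11 ± 0.24 log2 (limma, adjusted p = 0.287), followed by Hmgcs1 at -0.99 ± 0.43. Beside Insig2, the genes with an unadjusted p below 0.05 were Cyp51, Sc5d, Sqle, Idi1 and Scap. In Insig2, Cyp51, Sc5d and Idi1 every tumour of the higher numbers lay below every tumour of the lower numbers, which was so in 8.09% of all genes. In either direction the ranges did not overlap in 4 of the 25 genes, a share near the 16.4% of all genes. A dimmer Sc5d probe set did not separate the ranges, with Alb/AEG-1 replicate 1 at 4.82 and Alb/AEG-1 replicate 3 at 5.19. Insig2 was at 10.29, 9.92 and 10.82 in the higher numbers, against 11.41, 11.09 and 11.63 in the lower numbers. Its 3 probe sets gave differences of -1.11, -1.36 and -1.13. For Idi1 the separation was thin, with the nearest tumours at 10.307 and 10.309. By contrast, Msmo1 (-0.0066 ± 0.26), Ebp (-0.032 ± 0.11) and Tm7sf2 (-0.045 ± 0.16) had differences smaller than their errors. The median over the 25 genes became -0.63 when Alb/AEG-1 replicate 3 was left out and 0.031 when WT replicate 1 was left out.

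How the genes varied together was described with Pearson's r over the 6 arrays, which all genes share, so these values carry no p. The median r over the 300 pairs of the 25 genes was 0.58, and over the 171 pairs of the 19 enzymes 0.69. Among 6991 other named genes of at least median level the median r over all pairs was 0.025. These other genes were chosen by level and were not matched by their spread over the arrays. In 61 enzyme pairs (35.7%) r was over 0.8, compared with 3.88% of pairs of those other genes. After each genotype's mean was taken away, the median r was 0.69 over all 25 genes and 0.78 over the enzymes. Without WT replicate 1 the median over the 25 genes was 0.48, and without WT replicate 3 it was 0.44.

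Dhcr7 followed the other enzymes most closely, with r = 0.984 to the mean of their scaled values, then Fdft1 (0.953), Lss (0.944), Hmgcs1 (0.934) and Idi1 (0.902). The highest single pair was Mvk with Nsdhl (r = 0.972). A smaller block was formed by Hsd17b7, Ebp, Tm7sf2 and Msmo1, seen after the values were known: r was 0.960 for Hsd17b7 with Ebp, 0.948 for Tm7sf2 with Hsd17b7, 0.904 for Msmo1 with Hsd17b7 and 0.806 for Tm7sf2 with Msmo1. Lbr ran against that block, with r = -0.902 to Msmo1, -0.831 to Ebp, -0.825 to Hsd17b7 and -0.793 to Tm7sf2. It did not run against all enzymes alike: r was -0.256 to Hmgcs1, -0.0326 to Sc5d and 0.0519 to Cyp51. Among the regulators, Scap followed the enzymes (r = 0.707) more than Insig2 (0.51) and Srebf2 (0.366) did. Insig2 was closest to Idi1 (r = 0.784), Mvd (0.757) and Sc5d (0.732). Of the transport genes, Npc2 had r = 0.734 and Npc1 -0.0104. The SD of Npc2 over the 6 arrays was 0.141 log2 and that of Hmgcs1 0.848.

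**Figure D5:**
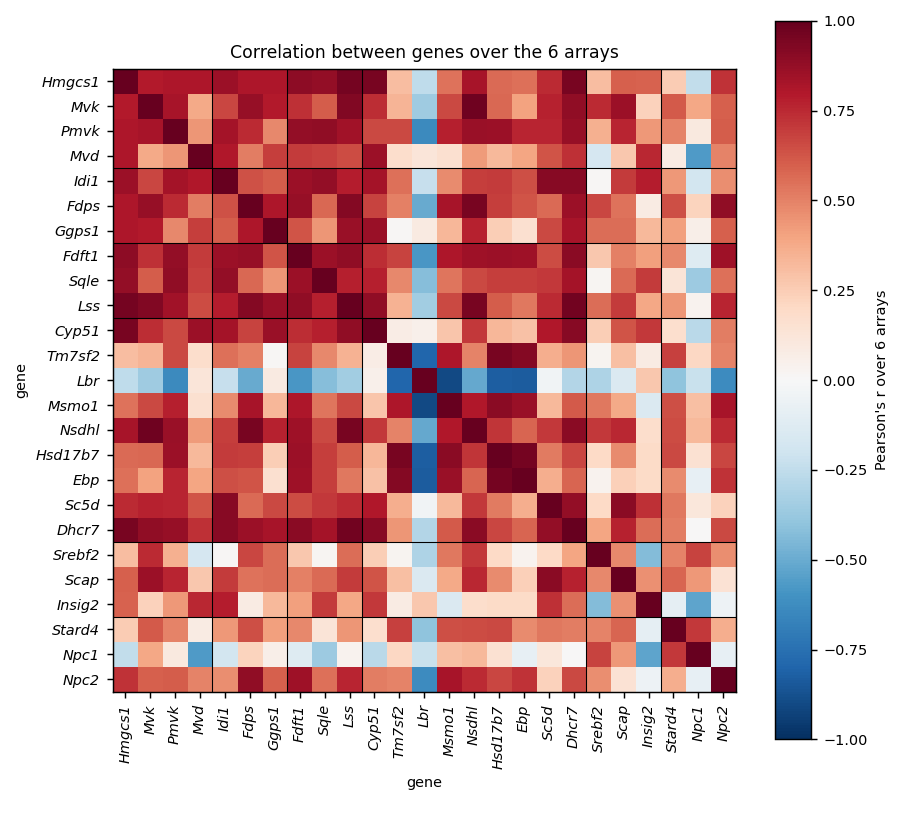
Pearson's r over the 6 arrays for each pair of the 25 genes, ordered by step with lines between steps; red is positive and blue negative. Most enzyme pairs are positive (median 0.69), Lbr is negative against Msmo1, Ebp, Hsd17b7 and Tm7sf2, and Npc1 and Srebf2 are pale against most enzymes.

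Outside the list, 734 named genes of at least median level and with an SD of at least 0.3 log2 over the 6 arrays were ranked by r with the mean scaled pattern of the 25 genes. The 8 highest were Pstpip2 (r = 0.970), Sel1l3 (0.963), Fzd7 (0.962), Rdh11 (0.948), Prkra (0.930), Sgk2 (0.915), Eef1akmt1 (0.911) and Ganc (0.909). Rdh11, a retinol dehydrogenase that the list of reported SREBP2 targets below also holds, was at 8.96, 9.15 and 8.92 in the Alb/AEG-1 tumours, against 9.73, 8.25 and 7.82 in the WT tumours. It thus had the same order of arrays as Hmgcs1 at its extremes. In 1.63% of the 734 genes r was over 0.9.

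Other genes of sterol metabolism were counted from lists named by function. Of 18 measured sterol regulators and other reported SREBP targets, 0 passed over all probe sets with limma, 0 had an unadjusted p below 0.05, 9 differences were positive and the median was -0.0035 log2. WT replicate 1 was the highest array in 6 of these 18, against 12.2% of all genes. Over these 18, the change of the difference between animal number ranges had a median of 0.48 log2. It was positive in 14 of them, against 48.1% of all genes. For the genotype difference, the 4 with the smallest p were Mmab (-0.21 ± 0.13), Erlin1, an endoplasmic reticulum membrane protein (0.20 ± 0.12), the desaturase gene Fads1 (-0.17 ± 0.11) and the sterol carrier gene Stard5 (-0.25 ± 0.16). Of 12 genes of the oxysterol receptor LXR and its targets, 6 were positive, 0 passed after adjustment and 1 had an unadjusted p below 0.05, a share near the 8.33% of all genes. This was Srebf1, which encodes the relative of SREBP2 that drives fatty acid synthesis, at 10.95, 11.06 and 11.17 in the Alb/AEG-1 tumours, against 10.82, 10.70 and 10.13 in the WT tumours (0.52 ± 0.18 log2; limma, adjusted p = 0.602). Mylip (-0.18 ± 0.12), Lpcat3 (-0.15 ± 0.14) and Abca1 (0.075 ± 0.076) followed by p in that list. Groups did not overlap in 2 of the 12, Srebf1 and Abca1, against 0 of the 18 SREBP targets above and 15.1% of all genes. Of 9 measured genes of the non-sterol isoprenoid branch, 8 were positive with a median of 0.075 log2 and 0 at an unadjusted p below 0.05. Most of them act in dolichol synthesis or protein prenylation, and the listed ubiquinone genes were not measured. Groups did not overlap in 1 of these 9 genes, against 15.1% of all genes. This was Nus1, a subunit of the dolichol-making enzyme, which differed by 0.24 ± 0.11. Its gap was small, from the lowest Alb/AEG-1 value of 8.540 to the highest WT value of 8.533. Its probe set may also bind related transcripts. Next by p came the prenyltransferase subunit genes Rabggta (0.10 ± 0.094) and Fnta (0.10 ± 0.094) and then Dhdds (0.17 ± 0.18), the partner of Nus1. Of 14 genes listed under cholesterol uptake, esters, bile acids and release, 5 were positive, the median was -0.019 log2 and 0 had an unadjusted p below 0.05. That list also holds Thrsp and Acat1, which do not act in these steps. The bile acid enzyme gene Cyp8b1 differed by -0.31 ± 0.15 and Cyp27a1 by -0.16 ± 0.083, followed by p by Osbpl9 (0.12 ± 0.080), of the oxysterol-binding protein family, and the lipoprotein receptor gene Lrp1 (-0.14 ± 0.10). Groups did not overlap in 2 of the 14, Cyp27a1 and Osbpl9.

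Markers of other cell types were read beside these values. Macrophage markers (9 of 9 measured) had 9 positive differences and a median of 0.42 log2, with 2 at an unadjusted p below 0.05 (C1qb, 0.76 ± 0.21, and Cd5l, 0.54 ± 0.17) and 0 after adjustment (limma), beside 47.8% positive and 8.33% at that p over all genes. Their mean per array was 7.30, 7.54 and 7.98 in the Alb/AEG-1 tumours, against 7.38, 6.999 and 7.08 in the WT tumours. Alb/AEG-1 replicate 3 was the highest Alb/AEG-1 array and WT replicate 1 the highest WT array, as in the mean level of the 19 enzymes. Over all 6 arrays the orders differed. WT replicate 1 was the highest array in 0 of the 9 markers, against 16 of the 19 enzymes. The lowest array was WT replicate 2 in 6 of the 9 markers and WT replicate 3 in 12 of the 19 enzymes. The part of macrophages in the enzyme pattern was not tested. The other lists had medians between -0.067 and 0.11 log2. They covered cholangiocytes (5 measured), T and NK cells (5), B cells (3), endothelial cells (6), stellate cells and fibroblasts (7), adipocytes (3) and red cell precursors (2), and 0 of their members had an unadjusted p below 0.05. The fat cell marker Adipoq lay between 2.82 and 3.18 on the 6 arrays, near the lowest value of the data set (2.22). The T cell marker Cd3g lay between 3.46 and 3.87. Other markers of the same lists were brighter, with Retn of the adipocyte list between 5.26 and 5.65 and Cd3e of the T and NK cell list between 6.01 and 6.33.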

How the data were processed

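Each sample is 1 Affymetrix array of tumour RNA (5 µg). The values are log2 expression deposited by the authors, made by robust multi-array averaging (RMA) per the submitters' processing notes; the version is not given in the sources used here. Control probe sets (64 of 22690) were left out. Genotypes were compared over the other 22626 probe sets with limma 3.58.1 in R 4.3.3 (lmFit, eBayes, Benjamini-Hochberg adjustment, threshold 0.05), checked on simulated data. Further limma fits took the range of animal numbers as a term or as an interaction. A gene is named from a probe set with 1 symbol (20380 had 1, 691 several, 1555 none), by its brightest probe set. All measured listed genes are named, with the 8 genes most like them, the 4 smallest p in each other sterol list, and a few cell markers chosen after their values were seen. Members and lists were chosen with earlier results of these data known. Nothing in the labels says more than that these are separate animals, so p-values measure the spread between 6 tumours. Promoters are from RefSeq (GRCm38.p6). Alternatives were normalization, centring, probe set choice, a filter on dim probe sets, moderation and leaving out each array. Figures used Python 3.11.15 and matplotlib 3.10.9.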

Additional observations from a re-analysis of the deposited data

How the results depend on the processing

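The count of 0 genes past the adjusted threshold held under quantile normalization, median centring, the filter on dim probe sets, both other choices of probe sets, the range of animal numbers as a term and without any 1 array. When probe sets were averaged per gene, 3 of the 14639 entries tested passed, against 1 probe set as reported. Those entries outnumber the 12393 named genes, so the 3 need not all be named genes. The count of 1 gene at an unadjusted p below 0.05 (Ggps1) became 0 when dim probe sets were left out, with the range of animal numbers as a term, without probe sets of the x_at and s_at types, and without Alb/AEG-1 replicate 1 or 3 or WT replicate 2 or 3. As means of all probe sets per gene the count was again 1, but Srebf2 (0.191) took the place of Ggps1 (0.0502). With the range as a term 0 probe sets passed after adjustment in all. Over the fits that left out 1 array, probe sets passing after adjustment numbered 0 to 1, genes at an unadjusted p below 0.05 numbered 0 to 9, and the median difference lay between -0.099 and 0.34 log2. The genes with such an interaction numbered 9 to 15, and those with such a difference between animal number ranges 1 to 14, with a median of -0.63 to 0.031. The interaction could not be fitted without WT replicate 1 or Alb/AEG-1 replicate 3, since each is alone in its range. The median correlation of the 25 genes was 0.693 for deviations from genotype means and 0.436 to 0.693 without 1 array. Of single differences, Sqle became -0.0333 after quantile normalization, Scap 0.0103 after median centring and Sc5d -0.0423 as the mean of all its probe sets. With the range as a term Idi1 became -0.118, Fdft1 -0.0056, Sqle -0.229, Sc5d -0.129 and Insig2 -0.227. In 18 genes the direction changed when 1 array was left out (log2, lowest to highest): Mvk -0.105 to 0.34, Pmvk -0.297 to 0.189, Idi1 -0.0996 to 0.36, Fdps -0.0244 to 0.594, Fdft1 -0.0947 to 0.36, Sqle -0.248 to 0.471, Msmo1 -0.34 to 0.0754, Nsdhl -0.131 to 0.342, Hsd17b7 -0.263 to 0.0125, Ebp -0.125 to 0.0112, Sc5d -0.138 to 0.366, Dhcr7 -0.0278 to 0.488, Srebf2 -0.0243 to 0.191, Scap -0.163 to 0.121, Insig2 -0.292 to 0.565, Stard4 -0.287 to 0.0845, Npc1 -0.228 to 0.0769, Npc2 -0.0043 to 0.159. The cause was not tested. The other 7 kept their direction, Hmgcs1 among them. No paired analysis was possible because the labels give the arrays no shared replicate numbers. The number of arrays, 3 per group, limits the precision of each value.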
